A study of Mus musculus with 50 samples.

Results

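The genes described are 10 heat shock chaperones of the cytosol and the mitochondrion, chosen by name from the 19455 genes of the deposited table. They are Hspa8, Hspa4, Hsph1, Hsp90aa1, Hsp90ab1, Dnajb1, Dnaja1, Hspd1, Hspe1 and Hspa9, and all 10 were listed and passed the filter on low values. All cells were KH2 mouse embryonic stem cells (C57BL/6 x 129/Sv), kept in serum with LIF. The 5 genotypes were WT, a knockout of Ythdf1, of Ythdf2 or of Ythdf3 (Ythdf1_KO, Ythdf2_KO, Ythdf3_KO), and Triple_KO, which carries all 3 knockouts. Cells stood on gelatin for 48 h and were collected after 0, 4 or 8 h in 5 µM actinomycin D, which stops transcription, so that the fall of a transcript over time follows its decay. Replicates A and B of each genotype gave 2 libraries each before treatment and after 8 h, and 1 each after 4 h, so 4, 4 and 2 in all. The sources used here do not state whether a knockout line came from 1 clone. The study asked how far the 3 readers, proteins that recognise mRNA carrying the m6A mark, stand in for each other.

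Chaperones bind unfolded segments of other proteins and release them in cycles driven by ATP. HSP70 proteins take up short hydrophobic stretches, J-domain proteins bring them the client and start ATP hydrolysis, and HSP110 proteins exchange the nucleotide so that the client is released. HSP90 dimers act later, on kinases, steroid receptors and other nearly folded clients, and in the mitochondrion an HSP70 pulls proteins in and the HSP60 and HSP10 chamber folds them. Embryonic stem cells are known for making many of these proteins without heat stress. Under stress, the factor HSF1 binds heat shock elements, arrays of inverted GAA units, in front of many of the genes.

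The heat shock elements found near the start sites are shown because they separate the members on a feature that no expression value entered. The search was for 3 units in alternating orientation, each parted from the next by any 2 bases, starting with GAA or with its complement TTC, on either strand, from 250 bases before to 50 bases after each start in the RefSeq promoters of GRCm38.p6, and the capitals mark the units. Promoter entries existed for 6 members (Hspa4, Hsph1, Dnajb1, Dnaja1, Hspd1 and Hspe1), and 3 of these genes held the element, against 0.662% of all 27025 genes with a promoter entry (0.603% of 32851 promoters).
Hsph1, chr5:149636282-149636306, minus strand: tgcagaTTCtgGAAagTTCtcctca
Hspd1, chr1:55088053-55088082, minus strand: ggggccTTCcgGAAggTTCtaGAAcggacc
Hspe1, chr1:55088053-55088082, plus strand: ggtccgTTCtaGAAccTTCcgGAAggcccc
The Hsph1 element lay 15 and 36 bases downstream of the 2 listed starts. The lines for Hspd1 and Hspe1 are 1 element of 4 units read on its 2 strands. These genes for HSP60 and HSP10 are neighbours on opposite strands. The element lay 144 bases upstream of 1 listed Hspd1 start and 167 bases downstream of the other, and 89 bases upstream of the Hspe1 start. A match is a description of letters, and no binding was measured.

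Library totals ran from 796921 to 2341410 reads (median 1364120), so that 1 read was worth 0.427 to 1.25 FPM, reads per 1000000 of the library total. Values have no length correction, so levels are compared within a gene only. At 0 h the 10 members together held 0.543% ± 0.010 of the WT libraries (SD, n = 4), and the knockout means ran from 0.529% to 0.549%. The targeted genes kept reads in their knockouts at 0 h (SD, n = 4 each). Ythdf1 had 57.2 ± 8.05 FPM in WT, 56.9 ± 5.92 in Ythdf1_KO and 42.5 ± 3.78 in Triple_KO. Ythdf2 had 51.5 ± 7.69 FPM in WT, 33.1 ± 4.202 in Ythdf2_KO and 86.2 ± 11.4 in Triple_KO, above WT. Ythdf3 had 23.2 ± 7.98 FPM in WT, 23.8 ± 3.59 in Ythdf3_KO and 21.5 ± 5.23 in Triple_KO. Reads near the 3′ end can lie outside an edited part, so these values check nothing about the labels. Embryonic stem cell markers were all detected, though Nanog had only 0 to 5 reads per WT library at 0 h. The summed level of 12 of them was 2951 to 3122 FPM in WT and 2501 to 2646 FPM in Triple_KO at 0 h. The summed level of 15 fibroblast markers was 409 to 457 FPM in WT, with Lum and Dcn at 0 in all 4 libraries, 504 to 611 FPM in Ythdf1_KO and 580 to 665 FPM in Triple_KO, with Lum at 0. The part of these shifts in the chaperone values was not tested, and fewer cells of a type cannot be told apart from less RNA per cell. No label states that replicates A and B were grown as separate cultures, so p-values measure a spread that may be technical.

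Before actinomycin D, the transcript that differed from WT in every knockout was that of Hspa4, an HSP110-family protein that recharges HSP70 with ATP. The WT libraries held 292, 238, 248 and 313 FPM of Hspa4, and the Triple_KO libraries 199, 181, 174 and 194 FPM. All 4 Triple_KO libraries lay below all 4 WT libraries. Its fitted level was lower by a log2 value of -0.53 ± 0.07 (SE) in Triple_KO, with a limma adjusted p of 8.49e-13. In the single knockouts Hspa4 ran from 183 to 246 FPM in Ythdf1_KO, 204 to 213 in Ythdf2_KO and 210 to 234 in Ythdf3_KO, so that only Ythdf1_KO overlapped WT. The log2 differences were -0.38 ± 0.07 (adjusted p = 8.10e-06), -0.38 ± 0.07 (2.73e-06) and -0.26 ± 0.07 (0.00456) in that order. The direction held under every scaling tried. The Ythdf3_KO call was lost without WT replicate B (-0.22, adjusted p = 0.0847) and without Ythdf3_KO replicate A (-0.21, 0.186). These 4 comparisons share the WT libraries.

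Hsph1, the stress-inducible HSP110, had 200.4, 177, 206 and 199.9 FPM in WT, 144 to 165 FPM in Ythdf3_KO, 150 to 176 FPM in Ythdf2_KO and 155 to 180 FPM in Triple_KO. No Ythdf2_KO or Ythdf3_KO library reached the lowest WT library, and 1 Triple_KO library did. Hsph1 was lower by -0.35 ± 0.07 in Ythdf3_KO (adjusted p = 0.000229), -0.28 ± 0.07 in Ythdf2_KO (0.00501) and -0.26 ± 0.07 in Triple_KO (0.00361), on the log2 scale. In Ythdf1_KO the difference was -0.09 ± 0.07 (0.667). The Ythdf2_KO call was lost without WT replicate B (-0.22, 0.108) or either Ythdf2_KO replicate (A -0.27, 0.0768, and B -0.28, 0.0529), and the Triple_KO call without WT replicate B (-0.21, 0.0832) or Triple_KO replicate B (-0.20, 0.138). Hspa8, the constitutive HSP70 known as HSC70, was high in all genotypes, with 1016, 1055, 1059.6 and 1167 FPM in WT and 1121, 1128, 1000.45 and 1151 FPM in Triple_KO. These libraries overlapped. Hspa8 passed the test in Ythdf1_KO alone (0.12 ± 0.03, adjusted p = 0.0265), a call lost without WT replicate A (0.07, 0.516), without Ythdf1_KO replicate B (0.10, 0.22) and under TMM scaling (0.10, 0.0747), while Ythdf3_KO passed under TMM (0.11, 0.0212).

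The 2 cytosolic HSP90 genes differed in sign in Triple_KO. Hsp90aa1, the stress-inducible form, had 842, 774, 837 and 828 FPM in WT and 943, 976, 919 and 972 FPM in Triple_KO, with no overlap. It was higher by 0.22 ± 0.04 (adjusted p = 3.71e-07). Hsp90ab1, the constitutive form, had 2169.5, 2148, 2033 and 2068 FPM in WT and 2004, 1901, 1883 and 2004 FPM in Triple_KO, also without overlap. It was lower by -0.11 ± 0.03 in Triple_KO (0.00033) and by -0.10 ± 0.03 in Ythdf2_KO (0.00516). Both Hsp90ab1 calls were lost without WT replicate A (-0.07, 0.079 in Triple_KO and -0.06, 0.282 in Ythdf2_KO), and that in Ythdf2_KO also without Ythdf2_KO replicate B (-0.08, 0.184) and under TMM (-0.06, 0.117).

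Among the mitochondrial members, Hspd1, which encodes HSP60, rose in Triple_KO from 318, 269, 319 and 267 FPM in WT to 363, 321, 357 and 368 FPM. All Triple_KO libraries exceeded all WT libraries, and the log2 difference was 0.27 ± 0.06 (adjusted p = 5.25e-05). In Ythdf2_KO Hspd1 gave 0.13 ± 0.06 (0.167), and it passed as higher there under TMM and median scaling. Its partner Hspe1, which encodes HSP10 and shares the element shown above, gave -0.14 ± 0.06 (0.0994) in Triple_KO, and under TMM scaling it passed as lower (-0.20, 0.0081). Hspa9, the mitochondrial HSP70 mortalin that drives protein import, gave -0.06 ± 0.05 (0.465). Dnajb1, the J-domain protein that pairs with HSP70 under stress, had 32.1, 32.96, 31.8 and 46.1 FPM in WT and gave -0.36 ± 0.17 (0.116) in Triple_KO, -0.43 ± 0.17 (0.095) in Ythdf2_KO and -0.44 ± 0.17 (0.112) in Ythdf3_KO, none past the threshold. The Triple_KO value passed under median scaling (-0.45, 0.0382) and without Triple_KO replicate B (-0.67, 0.0143). In all, 2 of 10 members passed in Ythdf1_KO (2.62% of all genes tested), 3 in Ythdf2_KO (8.2%), 2 in Ythdf3_KO (4.46%) and 5 in Triple_KO (21.9%). In Triple_KO 2 members were higher (14.3% of all genes were) and 3 lower (7.65%). The members' median log2 difference in Triple_KO was -0.09, beside 0.07 over all genes.

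**Figure D1:**
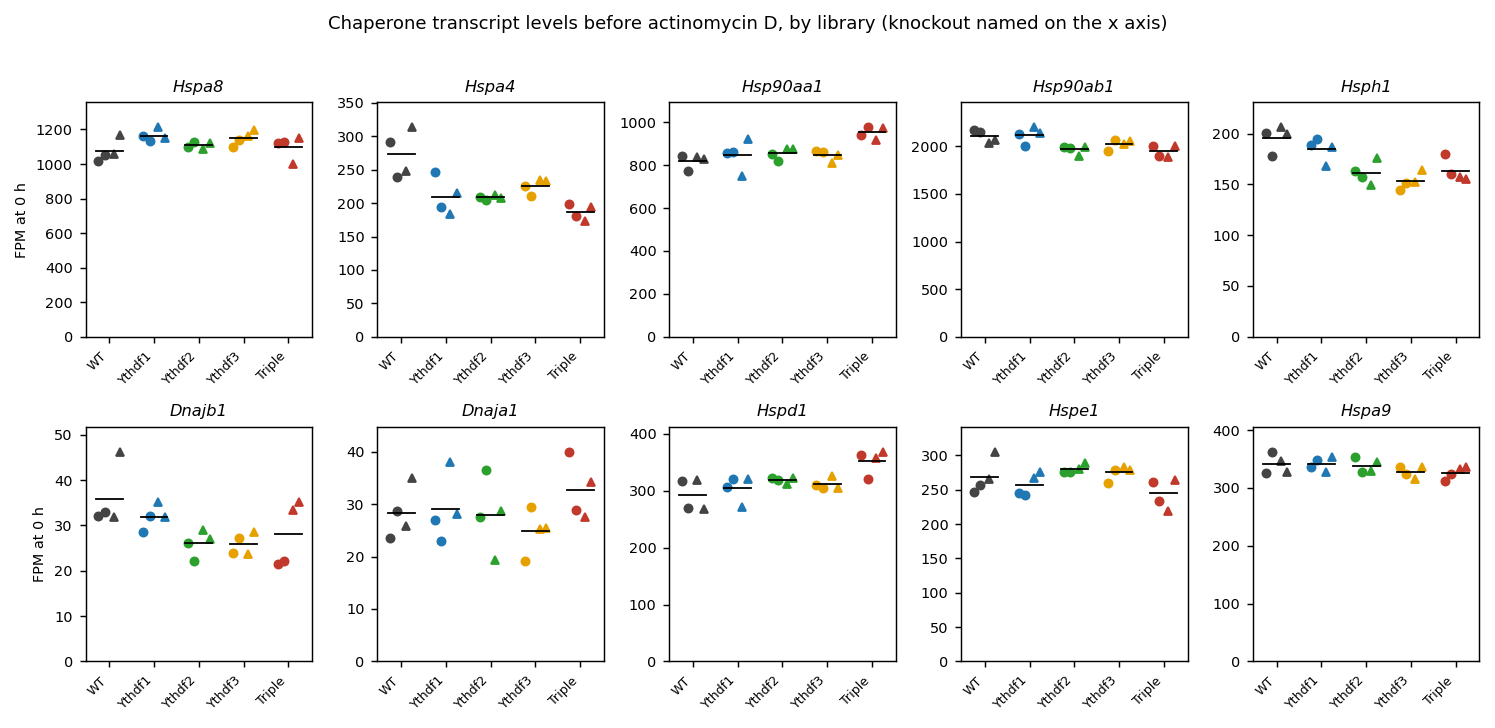
FPM of each of the 10 chaperone transcripts at 0 h (y axis from 0) for the 5 genotypes (x axis), with 1 point per library, circles for replicate A, triangles for replicate B and a bar at the mean of 4 libraries. Hspa4 lies lower in the knockouts than in WT (174 to 199 FPM in Triple_KO, 238 to 313 FPM in WT), and Hsp90aa1 and Hspd1 lie higher in Triple_KO.

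Dnaja1, another J-domain cochaperone of HSP70, could not be measured apart from its neighbour. In GENCODE M21 its gene (chr4:40722150-40737149, plus strand) overlaps the 3′ end of Smu1 (chr4:40736542-40757923, minus strand) by 608 nt, and no source used here states whether counting used strand. In each of the 50 libraries the Dnaja1 count differed from the Smu1 count by -1 to 12 reads, where Dnaja1 had 11 to 71 reads. Every Dnaja1 value here is therefore uncertain. Hspa8, Hsp90ab1, Hspd1 and Hspe1 also have processed pseudogenes, and Hsp90aa1 has a close paralog, and the counting of reads with several matches is likewise not stated.

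In WT cells over 8 h of actinomycin D, the members split into 2 that fell below the typical gene and 8 that stayed above it. A decay value is the log2 of the level after actinomycin D over that at 0 h, and the median of all 9078 genes tested was -0.81 at 8 h. The share of reads in listed genes fell from 43.3% to 33.2% of a WT library, so all genes together lost ground against the library total, and TMM and median scaling raised the all-gene median by 0.78 and 1.05. Values are therefore read against that median. Dnajb1 fell most. Its 4 WT libraries at 8 h held 2, 2, 1 and 3 reads (2.28, 2.01, 0.844 and 2.64 FPM), 5.44% of the mean at 0 h, and 0.0881% of genes had a lower decay value. Hspa8 went from 1016 to 1167 FPM at 0 h to 578 and 543 FPM at 4 h and 321, 327, 291 and 331 FPM at 8 h. No library of 1 time overlapped those of another. Its decay value was -1.76 ± 0.05 (adjusted p = 1.14e-38), which left 29.6% of the mean at 0 h, and both genes stayed lower under TMM and median scaling.

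The other 8 WT members kept 66.1% to 93.5% of their mean FPM at 0 h. Hsph1 kept 66.2% (-0.60 ± 0.10, adjusted p = 1.03e-06), Hspe1 75.3% (-0.40 ± 0.08, 1.51e-05), Hspd1 89.2% (-0.17 ± 0.07, 0.0474) and Hsp90ab1 90.9% (-0.14 ± 0.04, 0.00133). Hspa4 (-0.21 ± 0.10, 0.0659), Hsp90aa1 (-0.10 ± 0.05, 0.0669) and Hspa9 (-0.10 ± 0.07, 0.22) did not pass. In all, 7 of 10 members were called lower (55.2% of all genes were, and 56.9% in either direction), a direction that rests on the scaling. Under TMM scaling Hspa4, Hsp90aa1, Hsp90ab1, Hspd1, Hspe1 and Hspa9 were called higher, and median scaling added Hsph1. Over all genes 1792 were called higher under TMM and 2634 under median scaling. The members' median was -0.31, above that of all genes, and 8 of 10 members lay above it. The Hspd1 call was lost without WT replicate B (-0.07, 0.589), as was that of Dnaja1 (-0.58, 0.0375, against -0.24, 0.589), and the Hsp90ab1 call without WT replicate A (-0.09, 0.178).

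The 2 members with the lowest values at 8 h were also the lowest after 4 h in WT. The order of the others changed. Hspe1 had the highest member value at 4 h (0.15 ± 0.08, adjusted p = 0.135) and stood at -0.40 at 8 h. Hspa8 stood at -0.94 ± 0.05 (52.2% left) and Dnajb1 at -2.58 ± 0.39 (15.3% left, 9 and 4 reads), and both also fell under TMM and median scaling. Hsph1 stood at -0.32 ± 0.10 (adjusted p = 0.0108), beside an all-gene median of -0.37, turned positive under TMM and median scaling (0.08 and 0.24, neither called), and was not called without WT replicate B (-0.25, 0.229). Hsp90ab1 rose, from 2033 to 2169.5 FPM at 0 h to 2175 and 2369.6 FPM at 4 h (0.11 ± 0.04, 0.0191), also under both scalings, but not without WT replicate B (0.01, 0.915). In all, 4 members passed at 4 h, 3 lower and 1 higher (30.9% of all genes in either direction). In the knockouts 4, 3, 3 and 4 members passed at 4 h in Ythdf1_KO, Ythdf2_KO, Ythdf3_KO and Triple_KO (27.5%, 25.9%, 30.9% and 10.9% of all genes). Hspa8 and Dnajb1 were called lower in each of the 4. In Triple_KO, however, Hspa8 (-0.28 ± 0.05, 0.000108) was not called under TMM (-0.13, 0.0825) or under median scaling. Without Triple_KO replicate A it was not called either (-0.24). Dnajb1 in Triple_KO (-1.43 ± 0.39, 0.0084) was not called without replicate A (-1.41, 0.205) or B (-1.45, 0.172), and in Ythdf1_KO Hspa8 was not called under median scaling (-0.09, 0.243).

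**Figure D2:**
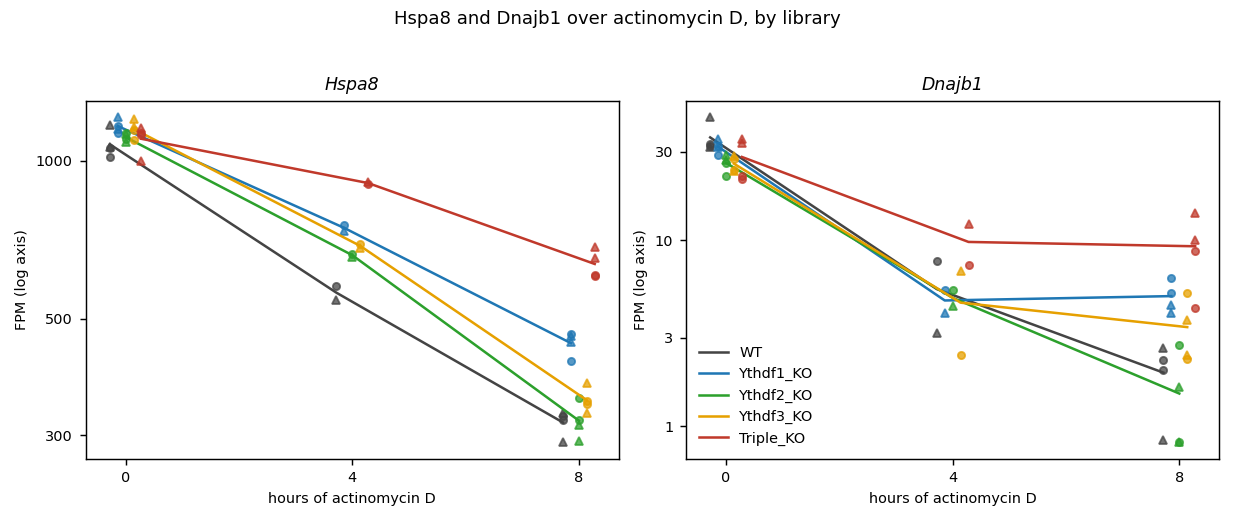
FPM of Hspa8 and Dnajb1 (log axis) at 0, 4 and 8 h of actinomycin D, with 1 point per library (circles replicate A, triangles replicate B, genotypes shifted sideways) and lines through the genotype means. At 8 h the 4 Triple_KO libraries of Hspa8 (603 to 684 FPM) and of Dnajb1 (4.33 to 14.03 FPM) lie above the WT libraries (291 to 331 and 0.844 to 2.64 FPM).

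In the knockouts the same 2 genes had the lowest decay values. Hspa8 at 8 h had 467, 415, 463 and 452 FPM in Ythdf1_KO, 321, 353, 292 and 314 FPM in Ythdf2_KO, 348, 344, 331 and 377 FPM in Ythdf3_KO, and 605, 603, 684 and 652 FPM in Triple_KO. Triple_KO libraries were the highest, Ythdf1_KO came next, and Ythdf2_KO overlapped WT. The amounts left were 38.6%, 28.9%, 30.5% and 57.8% of each genotype's mean at 0 h, with decay values of -1.37, -1.79, -1.71 and -0.79 (SE 0.05 each). After 4 h Hspa8 had 755 and 734 FPM in Ythdf1_KO, 665 and 657 FPM in Ythdf2_KO, 695 and 681 FPM in Ythdf3_KO and 901 and 912 FPM in Triple_KO, each pair above the WT pair of 578 and 543 FPM.

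Dnajb1 rested on few reads at 8 h. The 4 libraries held 5, 5, 4 and 4 reads in Ythdf1_KO, 1, 3, 1 and 2 in Ythdf2_KO, 3, 6, 3 and 4 in Ythdf3_KO and 12, 6, 22 and 17 in Triple_KO. As FPM, Triple_KO had 8.79, 4.33, 14.03 and 10.01 and WT had 0.844 to 2.64, with no overlap, while replicate B of Triple_KO was above replicate A at 0 h (33.5 and 35.2 against 21.5 and 22.1 FPM) as well as at 8 h. The amounts left were 15.7%, 5.76%, 13.2% and 33.1%, and the decay values -2.46, -3.50, -2.65 and -1.56 (SE 0.39 each).

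All 10 members were called lower at 8 h in each single knockout (54.5%, 62.6% and 59.6% of all genes in Ythdf1_KO, Ythdf2_KO and Ythdf3_KO, and 55.9%, 63.2% and 60.2% in either direction). In Triple_KO 5 of 10 were (25.8% of all genes, and 29.2% in either direction). Those 5 were Hspa8, Hsph1, Dnajb1, Hspe1 and the uncertain Dnaja1. Under median scaling only Hspa8 and Dnajb1 were still called lower in the single knockouts. In Triple_KO only Hspa8 was, and Dnajb1 stood at -0.96 (adjusted p = 0.0524). In each knockout 7 members were called higher. Of the 9078 genes tested, 2449, 2536, 2496 and 1990 were called higher in Ythdf1_KO, Ythdf2_KO, Ythdf3_KO and Triple_KO under that scaling. The all-gene medians there were 0.22, 0.27, 0.25 and 0.21. In Triple_KO the Dnajb1 call was lost without replicate A (-1.46, 0.0763), and those of Hsph1 (-0.33 ± 0.10, 0.0098), Hspe1 (-0.23 ± 0.08, 0.0222) and Dnaja1 (-0.70 ± 0.24, 0.0233) without either replicate (Hsph1 -0.27, 0.270, and -0.39, 0.073, Hspe1 -0.24, 0.176, and -0.21, 0.259, Dnaja1 -0.76, 0.169, and -0.64, 0.266). Hsp90aa1 at 8 h was higher in Triple_KO than in WT in every library, with 1028, 937, 1060.4 and 981 FPM against 773, 736, 851 and 696 FPM in WT. Its decay value there was 0.07 ± 0.05 (0.296), and under TMM and median scaling it was called higher (0.46 and 0.67). The 10 members together went from 0.543% to 0.416% of a WT library over 8 h and from 0.533% to 0.480% of a Triple_KO library. All listed genes together went from 43.3% to 33.2% in WT and from 44.3% to 41.1% in Triple_KO, so the smaller loss was shared by all genes.

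**Figure D3:**
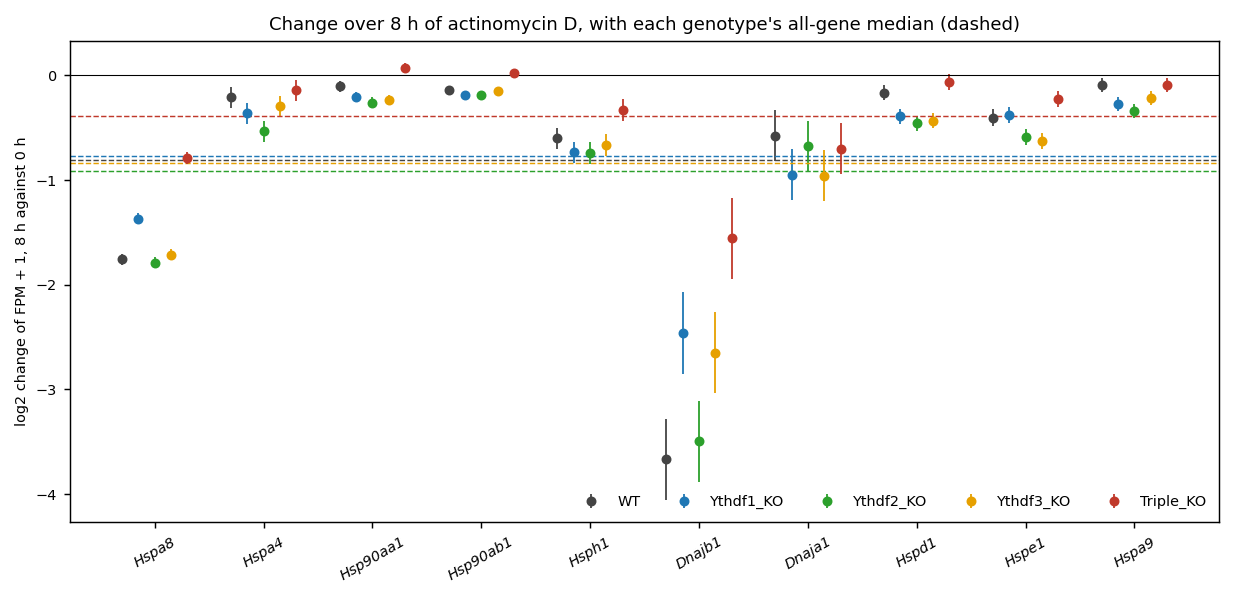
Decay value at 8 h (log2 change of FPM + 1, y axis) of each member in the 5 genotypes, with SE from limma as bars and each genotype's all-gene median as a dashed line. Hspa8 and Dnajb1 lie below the medians in every genotype (Hspa8 at -1.76 in WT against -0.81). The uncertain Dnaja1 lies below them in Ythdf1_KO, Ythdf3_KO and Triple_KO. Hsp90aa1, Hsp90ab1 and Hspa9 lie above the medians, from -0.34 (Hspa9 in Ythdf2_KO) to 0.07 (Hsp90aa1 in Triple_KO).

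The decay difference, a knockout's decay value minus that of WT, tests whether the fall relative to the library total differed. It therefore also holds any shift of all genes between genotypes, and is read beside the all-gene median. In Triple_KO the Hspa8 transcript fell less than in WT, by 0.97 ± 0.08 (adjusted p = 1.24e-15, higher in 2 of 2 replicates), beside an all-gene median of 0.37. The Hspa8 call held under every alternative tried. Its value was 0.57 under TMM, 0.51 under median scaling, 0.58 with DESeq2, and 0.86 to 1.07 when a replicate was left out. At 4 h the difference was 0.66 ± 0.08 (3.06e-09), and 1.55% of all genes passed there. Under TMM and median scaling Hspa8 still passed as higher at 4 h, and Hspe1 and Hsp90ab1 passed as lower. Scaled to the library total, those 2 gave -0.26 ± 0.11 (0.278) and 0.08 ± 0.05 (0.537). At 8 h Dnajb1 gave 2.11 ± 0.55 (0.0086). Its call was lost under TMM (1.72, 0.0961), under median scaling (1.66, 0.111), without either Triple_KO replicate (A 2.21, 0.066, and B 2.01, 0.124) and without WT replicate B (1.86, 0.0959). Hsp90ab1 gave 0.16 ± 0.05 (0.0453), a value under the all-gene median that turned to -0.23 under TMM and -0.29 under median scaling, and the call was lost without Triple_KO replicate A (0.15, 0.311) or B (0.17, 0.216) or WT replicate A (0.11, 0.396).

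These 3 of 10 members passed in Triple_KO, where 7.24% of all genes did. The other 7 gave -0.12 to 0.27 and none passed. The median over the 10 members was 0.17, under the 0.37 of all genes, and 2 members, Hspa8 and Dnajb1, lay above the latter. In TMM-scaled values the sign of most members turned, and Hsp90ab1 and Hspa9 (-0.39, adjusted p = 0.00846) passed as lower while Hspa8 still passed as higher. Fibroblast markers summed to 680 to 856 FPM in Triple_KO and 543 to 603 FPM in WT at 8 h, and their part in the chaperone values was not tested.

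Single knockouts gave smaller values. In Ythdf1_KO Hspa8 differed by 0.38 ± 0.08 (adjusted p = 0.0136), 1 of only 4 genes in the table to pass (0.0441%). The call was lost under TMM (0.32, 0.0518), without WT replicate B (0.30, 0.489) and without either Ythdf1_KO replicate (A 0.39, 0.179, and B 0.38, 0.305). Dnajb1 gave 1.21 ± 0.55 (0.925) in Ythdf1_KO, 0.17 ± 0.55 (0.984) in Ythdf2_KO and 1.02 ± 0.55 (0.861) in Ythdf3_KO. Hspa8 gave -0.04 ± 0.08 (0.981) in Ythdf2_KO and 0.04 ± 0.08 (0.991) in Ythdf3_KO. No member passed in limma, edgeR or DESeq2 in Ythdf2_KO (0.176% of genes did in limma) or in Ythdf3_KO (0.33%), where 4 and 2 members had an unadjusted p under 0.05. Hspd1 was among them in both, at -0.29 and -0.27 ± 0.10. At 4 h no member passed in a single knockout (0%, 0.022% and 0.011% of genes did), and Hspa8, at 0.29, 0.19 and 0.20 ± 0.08, was the 1 member with an unadjusted p under 0.05 in each. These comparisons share the WT libraries with the Triple_KO one.

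**Figure D4:**
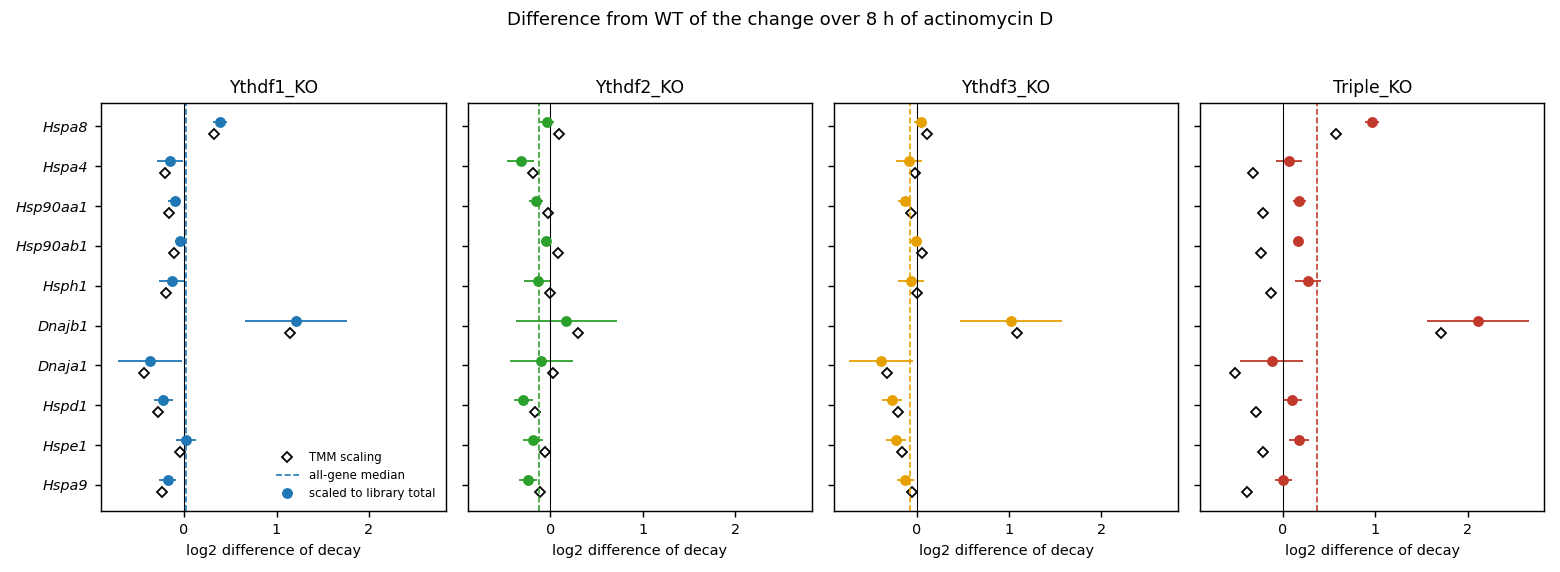
Decay difference from WT at 8 h (log2, x axis) of the 10 members in the 4 knockouts, with values scaled to the library total as filled points with SE, TMM-scaled values as open diamonds and the all-gene median as a dashed line. In Triple_KO Hspa8 (0.97, and 0.57 under TMM) and Dnajb1 lie right of that median, and the other members lie left of it.

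The Triple_KO decay values were also set against the mean of the 3 single knockouts, a comparison chosen after the values were seen that uses no WT library. Hspa8 fell less in Triple_KO by 0.84 ± 0.06 (adjusted p = 2.52e-17). Dnajb1 (1.31 ± 0.45, 0.0332), Hsph1 (0.38 ± 0.12, 0.0156), Hspd1 (0.37 ± 0.08, 0.00108), Hsp90aa1 (0.31 ± 0.06, 5.74e-05), Hspe1 (0.31 ± 0.09, 0.0119) and Hsp90ab1 (0.20 ± 0.04, 0.000521) passed too, 7 of 10 members where 17% of all genes did. The all-gene median was 0.42, above 5 of these 7. Under TMM and median scaling Hspa8 was the 1 member still called higher (0.40 and 0.35), the values of Hsph1, Hspd1, Hsp90aa1, Hspe1 and Hsp90ab1 turned negative, and Hsp90ab1 passed as lower. Without Triple_KO replicate A the calls of Dnajb1 (1.41, 0.169), Hsph1 (0.45, 0.0905), Hspd1 (0.36, 0.0545), Hspe1 (0.29, 0.18) and Hsp90ab1 (0.19, 0.0554) were lost. Without Triple_KO replicate B those of Dnajb1 (1.21, 0.27), Hsph1 (0.32, 0.264) and Hspe1 (0.32, 0.117) were, and Dnajb1 was also lost without Ythdf1_KO replicate B (1.23, 0.0668) or Ythdf2_KO replicate B (1.23, 0.0665), in DESeq2 (1.24, 0.0748), with no filter (1.31, 0.0931) and with a pseudocount of 5 (0.78, 0.052).

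Other genes of the chaperone network, 88 in 5 lists, were read beside the members. Of the inducible HSP70 genes, Hspa1a had 1 to 3 reads and Hspa1b 3 to 7 reads per WT library at 0 h, too few to test. At 0 h in Triple_KO 17 of 80 tested genes were higher and 6 lower, where 14.3% of all genes were higher and 7.65% lower. Under TMM 13 of the 80 were higher and 8 lower, beside 944 and 879 of all 8697 genes. Among the 17 higher ones were Bag3, an HSP70 exchange factor of the stress response (15.5 ± 3.40 FPM in WT, 34.2 ± 6.16 in Triple_KO, SD, n = 4, log2 difference 1.10, adjusted p = 6.58e-07), Bag5 (0.96) and the small heat shock gene Hspb8 (0.85). The regulator Hsf1 was higher as well (0.73 ± 0.18, 0.000817), though not without WT replicate A (0.41, 0.17) or in DESeq2 (0.61, 0.0993), and Hsf2 was not called (0.10 ± 0.16, 0.719). Hspb1, a small heat shock protein gene, was lower, with 532 ± 15.9 FPM in WT and 376 ± 19.2 FPM in Triple_KO (-0.50 ± 0.05, 7.98e-20). Fkbp5, an HSP90 cochaperone (-0.66), was also lower, and Tomm20, a receptor of the mitochondrial import pore (-0.75, 0.0493), was lower with a call lost without any 1 of the 4 replicates (-0.91 to -0.58, 0.0532 to 0.287). In the single knockouts 0, 8 and 4 of the 80 passed in Ythdf1_KO, Ythdf2_KO and Ythdf3_KO, where 2.62%, 8.2% and 4.46% of all genes did. For Ythdf1_KO limma, edgeR and DESeq2 all gave 0, and 8 of the 80 had an unadjusted limma p under 0.05. Of the 8 called in Ythdf2_KO 6 were higher, with Dnajc15 the largest (0.91 ± 0.16, 2.65e-06). The 2 lower ones were Dnajc7 (-0.32 ± 0.07, 0.000433) and Hspb1 (-0.29 ± 0.05, 3.5e-07). Of the 4 called in Ythdf3_KO 1 was higher, Fkbp4 (0.23 ± 0.07, 0.02), and 3 were lower, with Cryab the lowest (-1.21 ± 0.23, 4.8e-05).

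After 8 h in WT, 47 of 81 tested genes of these lists were lower and 1, the chaperonin subunit Cct7 (0.17), was higher, a split that became 11 lower and 37 higher under TMM. Over all 9078 genes 1724 were lower and 1792 higher under TMM. In values scaled to the library total 55.2% of all genes were lower, a share close to that of the lists. The mitochondrial unfoldase gene Clpx (-2.31) and the heat-inducible ubiquitin gene Ubb (-2.13) were among the lowest values called. The Cct7 call was lost without either WT replicate (0.18, 0.0942, and 0.16, 0.159). For the decay difference in Triple_KO under TMM, 2 of 81 were higher and 2 lower, beside 76 and 80 of all 9078 genes. In values scaled to the library total 11 of 81 passed, all higher, where 7.24% of all genes passed. The highest values were those of Dnajc9 (1.47, and 1.02 with adjusted p = 0.0552 under median scaling and 0.92 with 0.0554 in DESeq2), Ubb (1.37) and Ttc4 (1.35, and 1.25 with adjusted p = 0.0653 without Triple_KO replicate A). Ubb fell from 454 ± 24.5 to 104 ± 15.9 FPM in WT and from 448 ± 10.2 to 264 ± 17.8 FPM in Triple_KO (SD, n = 4). In Ythdf1_KO, Ubb was the 1 gene of the lists to pass (0.56 ± 0.12, adjusted p = 0.0183), and its call was lost without any 1 of the 4 replicates (0.49 to 0.63, 0.0657 to 0.451).

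As a description over the 15 genotype and time means, Pearson's r of log2 levels between 2 members ran from 0.039 for Hspa4 and Hsp90aa1 to 0.942 for Hsp90aa1 and Hspd1, with a median of 0.64 over all pairs. It was 0.916 between Hspa8 and Dnajb1. Among 5149 genes the closest to Hspa8 were Cdc5l (0.992), L1td1 (0.991) and Srm (0.991), and the closest to Dnajb1 were Trim59 (0.977), Rab40c (0.976) and Myo19 (0.976). All of these share the libraries and the common fall over actinomycin D.

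In gene structure, Hspa8 and Dnajb1 had the longest internal exons of the 10 members, with 556 and 581 nt in GENCODE M21, longer than those of 87.3% and 87.9% of 8630 tested genes, whose median was 203 nt. Hsp90aa1 had 367 nt, Hsp90ab1 357 nt and the other 6 members 165 to 253 nt. Their 3′ UTRs did not go together. Hspa8 (chr9:40801276-40805202) had 1 of 83 nt, shorter than in all but 3.84% of genes, and Dnajb1 (chr8:83608175-83612653) 1 of 1834 nt, beside a median of 898.5 nt. The ATTTA pentamer, a mark of AU-rich elements, occurred 1 time in the Hspa8 3′ UTR and 0 times in that of Dnajb1 (median over genes 1). Whether exon length bears on the decay values was not tested.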

How the data were processed

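Mouse embryonic stem cell RNA was sequenced from 3′ ends in 50 libraries. The authors deposited 1 table of FPM (the same unit as RPM), with reads counted for each RefSeq transcript and divided by the library total. The tools named per the submitters' processing notes are Bowtie2 and CASAVA 1.8.2, with build mm10. Multi-match handling and strand are not given in the sources used here. All low values were whole multiples of 1 read, so reads were recovered (100% of values within 0.1 read). Identical rows of a gene were counted once and distinct rows summed, giving 19455 genes. Duplicate libraries were averaged as log2(FPM + 1), which understates changes of low genes. Genes with at least 5 FPM in 2 or more replicate means were tested with limma 3.58 (R 4.3, trend, no replicate block), Benjamini-Hochberg over all genes, threshold 0.05: 8697 genes on 10 replicate means at 0 h, and 9078 on 30 for decay and its differences. Errors are limma SEs unless called SD. Alternatives were edgeR 4.0 and DESeq2 1.42 on recovered reads, TMM or median scaling, pseudocounts of 0.25 and 5, no filter, the highest transcript only, a replicate block and leaving out each replicate. Named genes were the 10 members, Hspa1a, Hspa1b, Hspb1, Bag3, Hsf1 and Hsf2, and up to 3 largest calls per direction from 5 chaperone lists with at least 10 FPM and the same sign in both replicates. An item withheld from the text is not reported here. Members and lists were chosen with earlier results of these data known. The limma scripts were tested on simulated data.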

Additional observations from a re-analysis of the deposited data

Results flagged for a closer look

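Among 100 groups of libraries checked, 1 library stood apart from the other 3 in 5, and chance gives about 1 in 20. Hspa4 in WT at 8 h had a lowest library of 203 FPM (nearest 243). Hsp90ab1 in Ythdf2_KO at 0 h had a lowest library of 1901 FPM (nearest 1983). Dnajb1 in WT at 0 h had a highest library of 46.1 FPM (nearest 32.96). Hspd1 in Ythdf1_KO at 8 h had a lowest library of 223 FPM (nearest 233), and Hspe1 in the same group had one of 193 FPM (nearest 198).

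The change over actinomycin D differed between genotypes by an interaction test for Hspa8 in Ythdf1_KO (0.38 on the log2 scale) and, in Triple_KO against WT, for Hspa8 (0.97 at 8 h and 0.66 at 4 h), Dnajb1 (2.11) and Hsp90ab1 (0.16). Against the mean of the single knockouts, the Triple_KO change differed for Hspa8 (0.84), Dnajb1 (1.31), Hsph1 (0.38), Hspd1 (0.37), Hsp90aa1 (0.31), Hspe1 (0.31) and Hsp90ab1 (0.20).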

How the results depend on the processing

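Scaling to the library total set the sign of most 8 h changes. For the comparisons named here, the values are those whose sign turned where either value was called, and other members turned without a call. In WT the change turned positive under DESeq2, median and TMM scaling respectively for Dnaja1 (0.17, 0.47, 0.20), Hsp90aa1 (0.66, 0.95, 0.67), Hsp90ab1 (0.63, 0.91, 0.64), Hspa4 (0.55, 0.84, 0.57), Hspa9 (0.68, 0.96, 0.68), Hspd1 (0.59, 0.89, 0.61), Hspe1 (0.37, 0.65, 0.38) and Hsph1 (0.15, 0.45, 0.18). The decay difference in Triple_KO turned negative under the same 3 settings for Hsp90ab1 (-0.23, -0.29, -0.23) and Hspa9 (-0.39, -0.45, -0.39) and, called under median scaling alone, for Hsp90aa1 (-0.27). The difference from the mean of the single knockouts turned negative for Hsp90aa1 (-0.12, -0.18, -0.13), Hsp90ab1 (-0.24, -0.29, -0.24), Hspd1 (-0.062, -0.12, -0.075), Hspe1 (-0.12, -0.18, -0.13), Hsph1 (-0.046, -0.10, -0.056) and, called under DESeq2 and median scaling but not TMM, Hspa9 (-0.24, -0.30). In WT at 4 h the change turned positive for Hspa4 (0.29, 0.50, 0.34), Hspa9 (0.34, 0.54, 0.38), Hspd1 (0.32, 0.54, 0.38) and Hsph1 (0.020, 0.24, 0.075), and in Triple_KO at 8 h for Hspa9 (0.29, 0.51, 0.30), Hspd1 (0.32, 0.54, 0.32), Hspe1 (0.16, 0.37, 0.16), Hsph1 (0.051, 0.27, 0.055) and, called under median scaling alone, Hspa4 (0.46). These changes follow from how far each scaling moves all genes. Over all genes, 157 higher and 5007 lower calls in WT at 8 h became 1792 and 1724 under TMM, and 655 higher and 2 lower decay differences in Triple_KO became 76 and 80.

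Counts of members called at 8 h moved in Triple_KO from 5 to 8 under median scaling and to 1 to 2 when a Triple_KO replicate was left out, and in Ythdf1_KO to 6 to 9 in that case. Leaving out replicates gave 1 to 2 decay differences in Triple_KO and 0 to 1 in Ythdf1_KO, where median scaling, TMM and no filter gave 0. At 0 h leaving out replicates gave 1 to 2 in each single knockout and 4 to 5 in Triple_KO, and median scaling gave 8 in Triple_KO. DESeq2, no filter and TMM gave 1 in Ythdf1_KO, DESeq2 and no filter gave 1 in Ythdf2_KO, and no filter gave 1 in Ythdf3_KO.

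Same-letter replicates did not deviate together over all genes tested (correlations of -0.0226 to 0.0303). Counting noise in genes of few reads can hide a shared deviation, so what the letters share stays unknown. A replicate block changed 1 of the single-gene calls recomputed, Hspa4 in WT at 8 h, which then passed (-0.21, limma adjusted p = 0.0387). Counts of genes called were not part of that tally. At 796921 to 2341410 reads per library, Dnajb1 at 8 h rests on 1 to 22 reads and its differences are known only to ± 0.55.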
